A study of Mus musculus with 15 samples.

Results

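Cytosolic ribosomal proteins are the protein subunits of the ribosomes that translate messenger RNA in the cytoplasm. They were taken by symbol: Rpl or Rps with a number and at most an a, x or l after it, plus Rplp0, Rplp1, Rplp2 and Rpsa. The platform annotation holds 60 such probe sets, of which 39 could be paired with values, among 22206 rows in all. These 39 comprise 24 proteins of the large (60S) subunit and 15 of the small (40S) subunit, on chromosomes 1, 2, 4, 5, 6, 7, 9, 10, 11 and X. The other 21, not analysed here, were Rpl3, Rpl8, Rpl10a, Rpl15, Rpl17, Rpl19, Rpl23, Rpl35a, Rpl36, Rpl37, Rpl3l, Rpl10l, Rpl39l, Rps7, Rps10, Rps14, Rps18, Rps23, Rps24, Rps28 and Rps29.

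Each protein of the set belongs to one of the ribosome's subunits: the small subunit decodes the message and the large one joins amino acids. Cells need the subunits in matched amounts, and messages of ribosomal proteins share a tract of C and T at their 5′ end (the TOP tract), through which the growth-sensing kinase mTOR and the protein Larp1 control their translation. Growing and dividing cells are known to make more ribosomes than resting ones.

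The arrays came from C57BL/6 mice aged 8 to 12 weeks, with 5 arrays in each of 3 groups. CF were fibroblasts from hearts that had not been stressed, and aCF were activated fibroblasts taken at 5 days from hearts with a myocardial infarction. EpiSC were epicardial stromal cells, sheared off the surface of hearts at the same time after infarction. All 3 groups came from wild-type hearts digested with collagenase, and the labels name no sham operation. Shear was used on infarcted hearts and not on unstressed ones, and the fibroblast groups are the non-muscle cells of the ventricles after straining and slow spinning, so each array holds a mixed fraction of cells. The labels call the arrays of a group biological replicates without naming the animals behind each, so p-values measure the spread between these arrays.

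Values are log2 expression from which the median of the 15 arrays was subtracted for every probe set, so they show differences between arrays and not levels. Every array also has a median of 0 over all rows, which makes each difference relative to the other genes of the array. The names of genes depend on an inference, that values stand 6900 rows below their identifiers in the deposited table (6903 on chromosomes 10 and 11), which no header or label states. At that distance, 33 of the ribosomal protein probe sets had a mean pairwise correlation of 0.301 in their deviations from group means. As deposited it was 0.0029, and at 9405 other distances it was at most 0.096. For 39 cell cycle genes it was 0.204 at that distance and at most 0.097 at 10971 others. The displacement was itself found from values, so these figures are no independent check of it. The paired ribosomal protein rows varied little within groups, with a median SD of 0.053 against 0.17 over all rows.

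Across all genes, each of the 15 arrays correlated best with another array of its own group. Pairs of CF arrays correlated at 0.743 to 0.845 and pairs of EpiSC arrays at 0.551 to 0.671, while pairs of aCF arrays were less alike, at 0.213 to 0.54. Of 11 measured epicardial and mesothelial markers, 4 were higher in EpiSC than in aCF and 0 lower past the threshold (0.401% and 0.266% of all rows). By mean alone 8 were higher and 3 lower, among them Tcf21 (log2 difference -0.98). Of 9 markers of activated fibroblasts 7 were higher in aCF than in CF past the threshold (1.21% of all rows). In EpiSC 5 of the 9 were higher than in CF past it (1.97% of all rows). By mean alone 6 were higher and 3 lower than in CF, among them Fap (-1.70) and Cilp (-1.30). Against aCF all 9 had a lower mean in EpiSC, 1 of them past the threshold (0.266% of all rows). Centred values cannot show whether a marker is absent.

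The stretches around the annotated start sites are shown for the 4 members whose values differed most between aCF and CF and the 4 that differed least, among the 32 members with a RefSeq entry, to set the extremes of the set side by side. Sequences are from RefSeq (GRCm38.p6), 5′ to 3′, from 30 bases before the start to 25 from the start on. For the 4 members with several entries, among them Rps19 with 3, only the entry nearest the annotated gene start was used. Capitals mark runs of at least 7 bases that are all C or T. The members with the largest differences come first.
Rpl39, chrX:37085198-37085252, minus strand: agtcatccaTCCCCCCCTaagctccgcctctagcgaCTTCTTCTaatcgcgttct
Rps26, chr10:128626482-128626536, minus strand: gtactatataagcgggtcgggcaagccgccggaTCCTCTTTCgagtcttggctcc
Rps19, chr7:24884562-24884616, plus strand: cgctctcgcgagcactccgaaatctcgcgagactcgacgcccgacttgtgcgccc
Rps13, chr7:116334166-116334220, minus strand: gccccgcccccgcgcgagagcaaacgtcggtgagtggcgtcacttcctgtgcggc
Those with the smallest differences follow.
Rpl14, chr9:120571487-120571541, plus strand: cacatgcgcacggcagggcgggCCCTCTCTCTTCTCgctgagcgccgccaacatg
Rps25, chr9:44407684-44407738, plus strand: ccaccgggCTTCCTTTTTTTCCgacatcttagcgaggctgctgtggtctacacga
Rpl4, chr9:64173357-64173411, plus strand: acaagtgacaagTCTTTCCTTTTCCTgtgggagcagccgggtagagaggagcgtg
Rpl7a, chr2:26910777-26910831, plus strand: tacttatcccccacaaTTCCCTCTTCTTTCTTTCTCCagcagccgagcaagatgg

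A run of 7 or more C or T bases on the gene's strand stood in this window in 20 of the 32 members (62.5%), against 32.0% of 32851 RefSeq start regions. The longest runs reached 21 bases in Rpl7a and 18 in Rpl35. The letters CGGAAG, the core bound by factors of the ETS family, were present on either strand within 250 bases before to 50 after the start in 21 of 32 (65.6%), against 16.9% of all entries. The letters AAGATGGC, part of the site of the factor YY1, were found in 2 of 32 (6.25%, against 2.75%). TATAAA within 50 bases before the start was found in 0 of 32, against 3.5%. The shares of all entries count every entry of a gene, whereas each member was represented by a single entry. The 20 members with a C and T run had a median log2 difference between aCF and CF of 0.152, and the 12 without had 0.164. Members with CGGAAG had 0.142 and those without 0.172. The difference between members with and without either feature was not tested.

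The comparison of aCF with CF sets fibroblasts after infarction against fibroblasts without it. All 39 ribosomal protein probe sets had a higher mean in aCF than in CF. Of all rows 44.6% did, and of rows paired with an identifier 49.8%. The median log2 difference was 0.16, with a range of 0.02 to 0.87. It was -0.02 over all rows and 0 over the rows paired with an identifier. The shift was small for most members and was present in every array, as the heat map of the 39 probe sets shows. The member median lay at -0.2, -0.15, -0.15, -0.17 and -0.1 on CF1 to CF5 and at 0, -0.01, 0, 0.06 and 0.02 on aCF1 to aCF5. The groups did not overlap in this median. In samples of many cells, more cells of a type and more RNA per cell cannot be told apart.

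**Figure D1:**
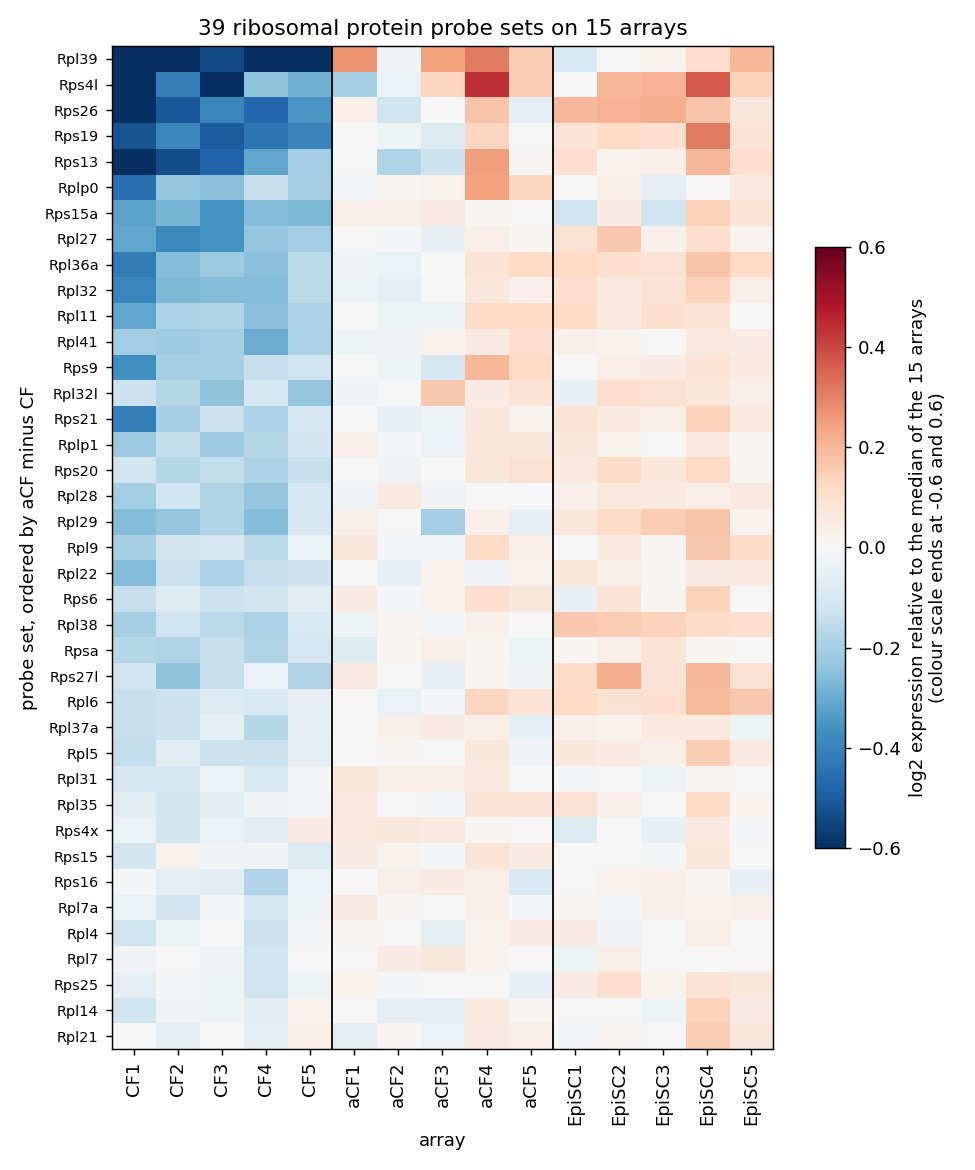
Centred log2 expression (colour) for 39 ribosomal protein probe sets (rows, ordered by the difference between aCF and CF) on the arrays of the 3 groups (columns, 5 per group). CF columns are mostly below 0, and the member median there lies between -0.2 and -0.1, against -0.01 to 0.06 in aCF and 0.03 to 0.1 in EpiSC.

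Rpl39, a very small protein at the tunnel through which the new chain leaves the large subunit, rose in aCF. It stood at -0.85, -0.66, -0.54, -0.67 and -0.66 on CF1 to CF5, and at 0.27, -0.02, 0.24, 0.31 and 0.15 on aCF1 to aCF5. The lowest aCF array was above every CF array. The log2 difference was 0.87 ± 0.08 (SE, n = 5 arrays per group), a 1.82-fold difference. In limma's moderated test, Bonferroni-adjusted over all 22206 rows, the adjusted p = 0.0103. It was the only member past that threshold, 1 of 39, where 1.21% of all rows were higher in aCF (1.53% in either direction). The call was lost without CF2, CF4, CF5, aCF1, aCF3 or aCF5 (adjusted p 0.0524 to 0.0658), while the difference stayed between 0.82 and 0.92 in all 10 omissions. It was also lost without both aCF4 and aCF5 (0.303).

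Adjusted by the less strict Benjamini-Hochberg method, 20 of 39 members (51.3%) were higher in aCF and 0 lower. Of all rows 8.74% were higher, and of rows paired with an identifier 10.9%. In 26 of 39 (66.7%) the lowest aCF array lay above the highest CF array. That held for 7.88% of all rows and 9.92% of rows paired with an identifier. The reverse order held for 0 members and 6.84% of all rows. These shares are well above the background of all rows. The members varied less within groups than all rows (median SD 0.053 against 0.17), so a shift of a given size separates their groups more readily. The shares carry no test, since the probe sets share the same arrays.

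**Figure D2:**
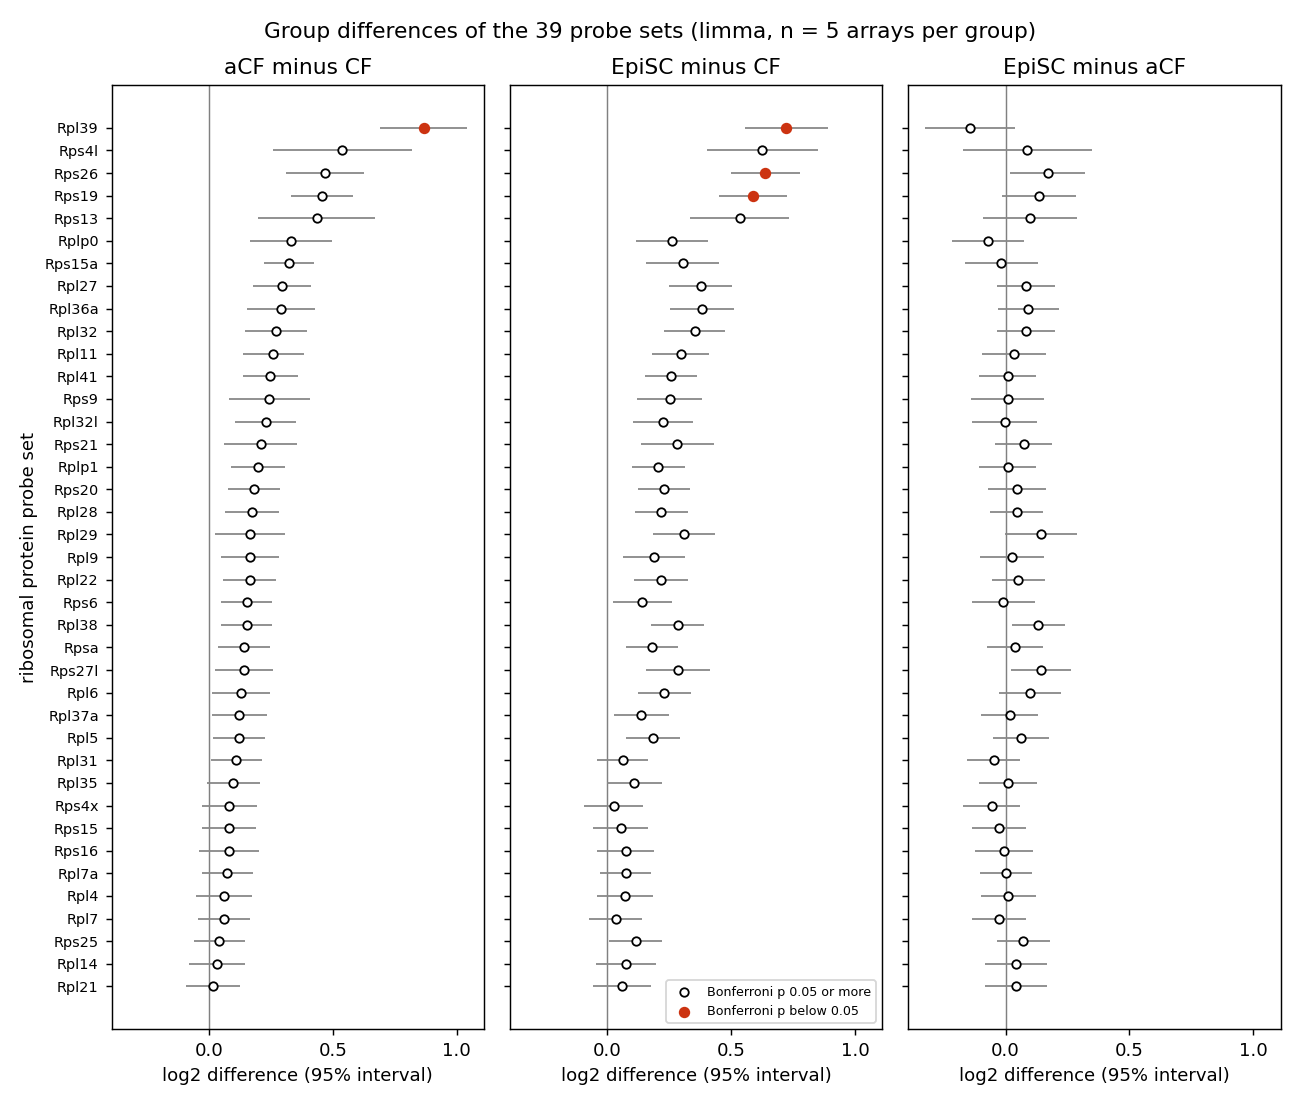
Log2 differences with 95% intervals (x axis) for the 39 probe sets (y axis) in the 3 comparisons, from limma with 5 arrays per group; filled points passed the Bonferroni threshold of 0.05. Points lie right of 0 for all members against CF, and around 0 for EpiSC against aCF.

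Rps19, whose mutation is a cause of the inherited red cell failure Diamond-Blackfan anaemia, stood at -0.52, -0.39, -0.5, -0.44 and -0.4 in CF. In aCF it stood at 0, -0.03, -0.08, 0.13 and 0, clear of every CF array. The difference of 0.45 ± 0.06 did not pass Bonferroni adjustment in limma (adjusted p = 0.191; 0.000383 by Benjamini-Hochberg). In a fit of all 3 groups together it passed (0.0447).

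Rps26, which lines the channel where the message leaves the ribosome, lay between -0.6 and -0.35 in CF. In aCF it lay between -0.12 and 0.17, with a difference of 0.47 ± 0.07 (limma, Bonferroni-adjusted p = 1; 0.00129 by Benjamini-Hochberg). Rps13, a small subunit protein, differed by 0.43 ± 0.11 with more spread among arrays: CF ran from -0.69 to -0.21 and aCF from -0.18 to 0.25. Rps15a was tighter, from -0.36 to -0.26 in CF and from 0 to 0.05 in aCF. Its difference was 0.32 ± 0.05 (limma, Bonferroni-adjusted p = 0.606; 0.000854 by Benjamini-Hochberg). In none of these 3 proteins did a CF array reach an aCF array.

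The smallest differences were those of Rpl21 (0.02 ± 0.05), Rpl14 (0.03 ± 0.05), Rps25 (0.04 ± 0.05), Rpl7 (0.06 ± 0.05) and Rpl4 (0.06 ± 0.05). For Rpl21 the 95% interval ran from -0.09 to 0.12 and the arrays of the groups overlapped. Without aCF4 and aCF5 its difference was -0.01. The arrays of the groups also overlapped for Rpl14, Rps25, Rpl7 and Rpl4. The interval of Rpl39, the largest value of the set, ran from 0.69 to 1.04.

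The comparison of EpiSC with CF, which the design text does not list, uses the same CF arrays, so it is no separate support for what was seen in aCF. All 39 probe sets again had a higher mean in EpiSC, against 48.4% of all rows and 55.6% of rows paired with an identifier. The median was 0.22, with a range of 0.03 to 0.72. On EpiSC1 to EpiSC5 the member median was 0.03, 0.05, 0.03, 0.1 and 0.05. Of the 39, 3 rose past the Bonferroni threshold in limma, where 1.97% of all rows were higher (2.91% in either direction). By Benjamini-Hochberg 26 were higher and 0 lower (background 14.5% higher). In 30 of 39 (76.9%) the EpiSC arrays all lay above the CF arrays, against 11.6% of all rows.

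Those past the threshold were Rpl39, Rps26 and Rps19. On EpiSC1 to EpiSC5, Rpl39 stood at -0.09, 0, 0.02, 0.1 and 0.2, which gave a difference from CF of 0.72 ± 0.08 (limma, adjusted p = 0.0404). Rps26 stood at 0.2, 0.21, 0.22, 0.17 and 0.07, a difference of 0.64 ± 0.06 (adjusted p = 0.0245). Rps19 stood at 0.08, 0.12, 0.1, 0.31 and 0.08, a difference of 0.59 ± 0.06 (adjusted p = 0.0473). All 5 EpiSC arrays lay above all 5 CF arrays for each. The calls needed nearly every array: those of Rpl39 and Rps19 were lost in each of the 10 omissions (adjusted p 0.0665 to 0.227 and 0.0581 to 0.29). That of Rps26 held only without CF5 (0.048, otherwise up to 0.162). The differences themselves stayed between 0.68 and 0.76, 0.55 and 0.60, and 0.60 and 0.67. A trended and robust fit ended all 3 calls (1, 0.526 and 0.213 for Rpl39, Rps19 and Rps26), and centring arrays on the paired rows ended that of Rps19 (0.0592).

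Rps4l (0.63 ± 0.10, between Rps26 and Rps19 in size) and Rps13 (0.53 ± 0.09) completed the 5 largest differences between EpiSC and CF, neither past Bonferroni adjustment (limma, adjusted p = 1 for each). The smallest were those of Rps4x (0.03 ± 0.05), Rpl7 (0.03 ± 0.05), Rps15 (0.05 ± 0.05), Rpl21 (0.06 ± 0.05) and Rpl31 (0.06 ± 0.05). For these 5 the arrays of the groups overlapped.

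**Figure D3:**
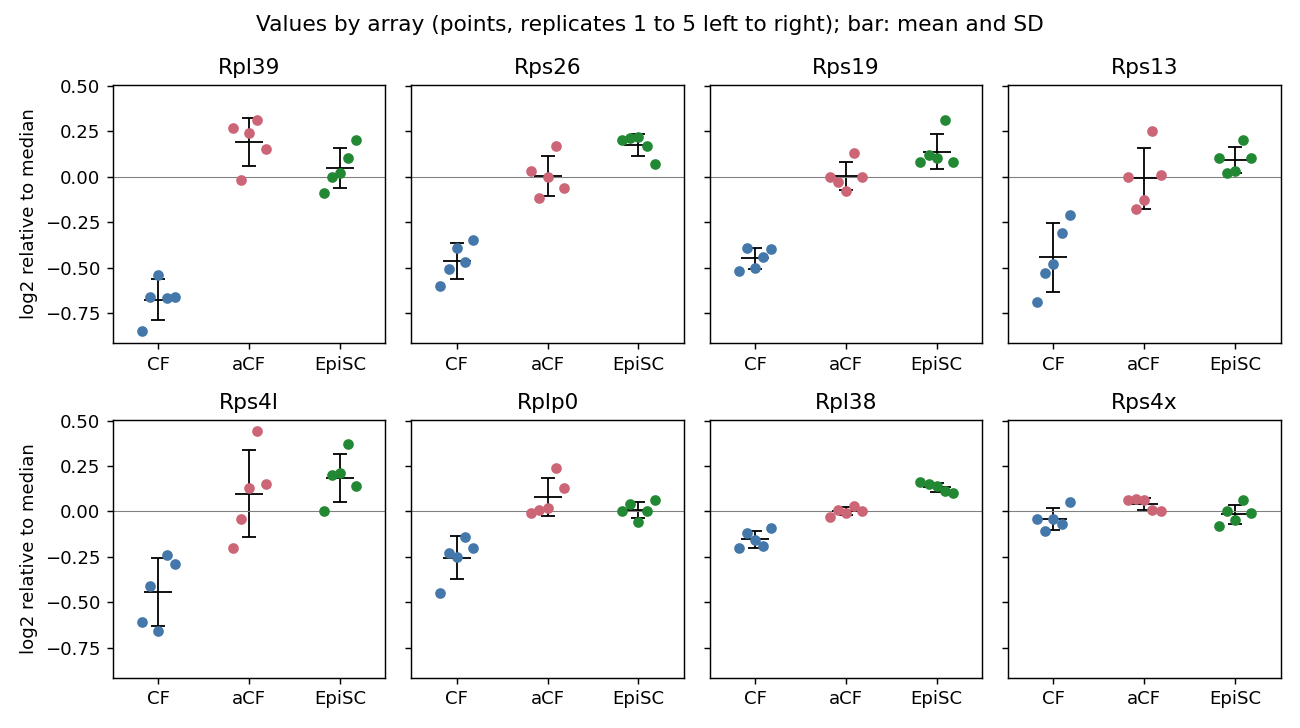
Centred log2 expression (y axis) for 8 probe sets on each array (points, 5 per group), with the group mean and SD as bars. Rpl39, Rps26, Rps19, Rps13, Rps4l, Rplp0 and Rpl38 have CF arrays below all aCF and EpiSC arrays, and Rps4x has overlapping groups.

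The 2 populations of the infarcted heart, EpiSC from its surface and aCF from its digested ventricles, were then set against each other. Little separated them in this gene set. The median difference was 0.04, against 0.01 over all rows and 0.03 over rows paired with an identifier. In EpiSC 28 members were higher and 10 lower, with Rpl7a equal at 2 decimals. After quantile normalization the median was 0.02, with 23 members higher. Without aCF4 and aCF5 it was 0.06, with 31 higher. Differences ran from -0.14 to 0.17. Of all rows, 52.4% were higher in EpiSC, and of rows paired with an identifier 56.5%. In limma 0 of the 39 passed Bonferroni adjustment (background 0.401% higher and 0.266% lower) and 0 passed Benjamini-Hochberg (background 4.61% higher and 5.01% lower). Without adjustment, 3 of the 39 members had p under 0.05 in limma, each with the higher mean in EpiSC: Rpl38, Rps27l and Rps26. Of all 22206 rows, 2671 were higher and 2646 lower in EpiSC at that level. The share of members was thus not above the background. The 95% intervals of the 39 differences all lay between -0.33 and 0.35.

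EpiSC lay wholly above aCF for 2 members (5.13%, against 5.18% of all rows), a share at the background, and wholly below for 0 (against 4.73%). Rpl38, known for a part in the translation of selected developmental messages, stood at 0.16, 0.15, 0.14, 0.11 and 0.1 in EpiSC and at -0.03, 0.01, -0.01, 0.03 and 0 in aCF. Its difference was 0.13 ± 0.05 (limma, Bonferroni-adjusted p = 1). Rps27l differed by 0.14 ± 0.06 (limma, adjusted p = 1). Rps26 (0.17 ± 0.07), Rpl29 (0.14 ± 0.07) and Rps19 (0.13 ± 0.07) were the other members with the largest positive values. At the other end were Rpl39 (-0.14 ± 0.08), Rplp0 (-0.07 ± 0.07), Rps4x (-0.06 ± 0.05), Rpl31 (-0.05 ± 0.05), Rpl7 (-0.03 ± 0.05) and Rps15 (-0.03 ± 0.05). None of these is past its threshold, and without aCF4 and aCF5 Rplp0 differed by 0.001.

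By subunit, the 15 small subunit members had a median difference of 0.18 between aCF and CF and the 24 large subunit members 0.16. Higher by Benjamini-Hochberg were 8 of 15 and 12 of 24. Between EpiSC and CF the medians were 0.25 and 0.22, with 10 of 15 and 16 of 24 higher. Both subunits were therefore about equally represented.

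The P stalk, the arm of the large subunit that recruits elongation factors, is built on Rplp0 and carries Rplp1. Rplp0 stood at -0.45, -0.23, -0.25, -0.14 and -0.2 in CF and at -0.01, 0.01, 0.02, 0.24 and 0.13 in aCF, a difference of 0.33 ± 0.07 (limma, Bonferroni-adjusted p = 1; 0.0112 by Benjamini-Hochberg). In EpiSC it ran from -0.06 to 0.06. Rplp1 ran from -0.22 to -0.11 in CF, from -0.04 to 0.07 in aCF and from 0 to 0.07 in EpiSC. Its differences from CF were 0.20 ± 0.05 and 0.21 ± 0.05 (limma, Bonferroni-adjusted p = 1 for each). For both proteins the CF arrays lay below all others. Rpsa, a small subunit protein also described as a laminin receptor precursor, differed from CF by 0.14 ± 0.05 in aCF and 0.18 ± 0.05 in EpiSC (limma, Bonferroni-adjusted p = 1 for each), again without overlap. Rplp2 was not analysed here.

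Of the copies with a separate name, Rps4l and Rpl32l could be set beside their counterparts. Rps4l, named as like S4, stood at -0.61, -0.41, -0.66, -0.24 and -0.29 in CF and at -0.2, -0.04, 0.13, 0.44 and 0.15 in aCF. Its difference of 0.54 ± 0.13 had the widest interval of the set (0.26 to 0.82; limma, Bonferroni-adjusted p = 1). Rps4x, the X-linked S4 gene, differed by 0.08 ± 0.05 between aCF and CF and overlapped. The intervals of the S4 genes (0.26 to 0.82 and -0.03 to 0.19) did not meet. Rpl32l differed by 0.23 ± 0.06 and Rpl32 by 0.27 ± 0.06, with overlapping intervals (0.105 to 0.351 and 0.145 to 0.395). Ribosomal protein genes have many processed copies, and which copies each probe set can bind was not examined.

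Rps27l, a paralog of Rps27 known as a target of p53, stood between -0.24 and -0.04 in CF, between -0.05 and 0.05 in aCF and between 0.08 and 0.22 in EpiSC. Its difference between EpiSC and CF was 0.28 ± 0.06 (limma, Bonferroni-adjusted p = 1; 0.00421 by Benjamini-Hochberg). Of 9 other p53 pathway genes 0 passed Bonferroni adjustment in limma in any of the 3 comparisons. Their median differences were 0.42 for aCF against CF, 0.02 for EpiSC against CF and -0.21 for EpiSC against aCF. By Benjamini-Hochberg 3 of 9 were higher in aCF than in CF, as were 8.74% of all rows.

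Of a list of 18 proteins mutated in Diamond-Blackfan anaemia, which need not be complete, 7 were measured. Their median was 0.26 between aCF and CF. In limma 0 of them passed Bonferroni adjustment there and 4 were higher by Benjamini-Hochberg (8.74% of all rows). They ranged from Rpl35 (0.10 ± 0.05) and Rpl31 (0.11 ± 0.05) to Rps19 and Rps26. In 6 of 7 the aCF arrays lay above the CF arrays, against 26 of all 39 members. Rpl5 and Rpl11, which with the 5S RNA can bind the p53 inhibitor Mdm2, differed by 0.12 ± 0.05 and 0.26 ± 0.06. The 5 measured proteins at the exit tunnel had a median of 0.11, with Rpl39 far above Rpl4. The 7 measured proteins of the small subunit's head and message path had 0.14. Rps6, the classical substrate of the S6 kinases, differed by 0.15 ± 0.05 and Rpl41, the smallest ribosomal protein, by 0.25 ± 0.05 (limma, Bonferroni-adjusted p = 1 for each).

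Because the correlation of the members inside groups served to pair names with values, it is not a result about them. By array, EpiSC4 held the highest value of its group for 22 of 39 members, aCF4 for 22 and CF5 for 25. CF1 held the lowest value of all 15 arrays for 21 members. On aCF4 36 members were above 0, against 14 on aCF2.

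Genes whose pattern over the 15 arrays was most like the member median included Glipr1 (Pearson r = 0.987), the elongation factor gene Eef1b2 (0.984), Serp1 (0.976), Fam83d (0.97) and the splicing factor gene Srsf9 (0.969). Tyms (0.967), Timp1 (0.967), Plac8 (0.965), Asb5 (0.965) and Gpr39 (0.964) completed the 10 closest of the named genes. Their range over arrays was often larger: 4.98 log2 units for Glipr1 and 0.95 for Eef1b2.

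Other parts of the protein synthesis machinery were compared through gene lists, some of which share genes. Eef1a1, Eef1b2, Eef2, Eif2s3x and Eif3f stand among both the genes with TOP tracts and the translation factors. Npm1 stands among both the genes with TOP tracts and the ribosome assembly factors. The 8 measured genes with TOP tracts outside the ribosome had a median of 0.31 between aCF and CF, with 0 past Bonferroni adjustment in limma and 6 of 8 higher by Benjamini-Hochberg (8.74% of all rows). Between EpiSC and CF 2 of 8 rose (1.97% of all rows). Eef1b2, an exchange factor of elongation, stood at -0.7, -0.65, -0.54, -0.54 and -0.55 in CF and between 0.05 and 0.25 in EpiSC, a difference of 0.73 ± 0.06 (limma, adjusted p = 0.0048). A trended and robust fit ended that call (0.256). The nucleolar chaperone Npm1 rose by 0.57 ± 0.06 (adjusted p = 0.0357). Omitting any single array ended the call of Npm1 (0.0614 to 0.217), as did the trended and robust fit (0.0535).

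Of 20 measured translation factors, 0 passed Bonferroni adjustment in limma between aCF and CF (median 0.12; 6 higher and 0 lower by Benjamini-Hochberg, against 8.74% and 9.38% of all rows). Between EpiSC and CF 2 of 20 rose (median 0.31, against 1.97% of all rows): Eef1b2 and Eif6, a factor that keeps the subunits apart. Eif6 stood between -0.37 and -0.09 in CF, between -0.1 and 0.26 in aCF and between 0.49 and 0.84 in EpiSC. It differed from CF by 1.00 ± 0.08 in EpiSC (limma, adjusted p = 0.00548; 0.0718 in a trended and robust fit). Among 10 measured regulators, the translation inhibitor gene Eif4ebp1 rose in EpiSC by 0.94 ± 0.06 (adjusted p = 0.000363), and 0 passed between aCF and CF, where the median was -0.13. By Benjamini-Hochberg 1 regulator was higher and 3 lower between EpiSC and CF (14.5% and 17.7% of all rows). Between aCF and CF 1 was higher and 2 lower (8.74% and 9.38% of all rows). The lower ones include Rptor, a subunit of the mTOR complex that controls TOP messages, with differences from CF of -0.66 ± 0.09 in EpiSC and -0.54 ± 0.06 in aCF (limma, Bonferroni-adjusted p = 0.371 and 0.068). Tsc1, part of a complex that restrains mTOR, had -0.76 ± 0.25 and -0.66 ± 0.15 (limma, Bonferroni-adjusted p = 1 for each).

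Ribosome assembly factors did not follow the ribosomal proteins between aCF and CF. Only 7 of 41 had a higher mean in aCF, against 44.6% of all rows, and the median was -0.14. In limma 0 passed Bonferroni adjustment. By Benjamini-Hochberg 9 were lower and 1 higher, where 9.38% of all rows were lower. The higher one was Npm1 (0.33 ± 0.07), which is also in the list of genes with TOP tracts. Between EpiSC and CF their median was 0.07, and 2 of 41 rose (1.97% of all rows), Npm1 and Nhp2. Nhp2, a protein of RNA-modifying particles, differed by 0.92 ± 0.10 (limma, adjusted p = 0.0396). Its call held when CF4 was omitted and was lost with any other single omission (up to 0.244) and in the trended and robust fit (0.128). Between EpiSC and aCF 32 of 41 had a higher mean in EpiSC, with a median of 0.21, 0 past Bonferroni adjustment and 10 higher by Benjamini-Hochberg (4.61% of all rows).

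**Figure D4:**
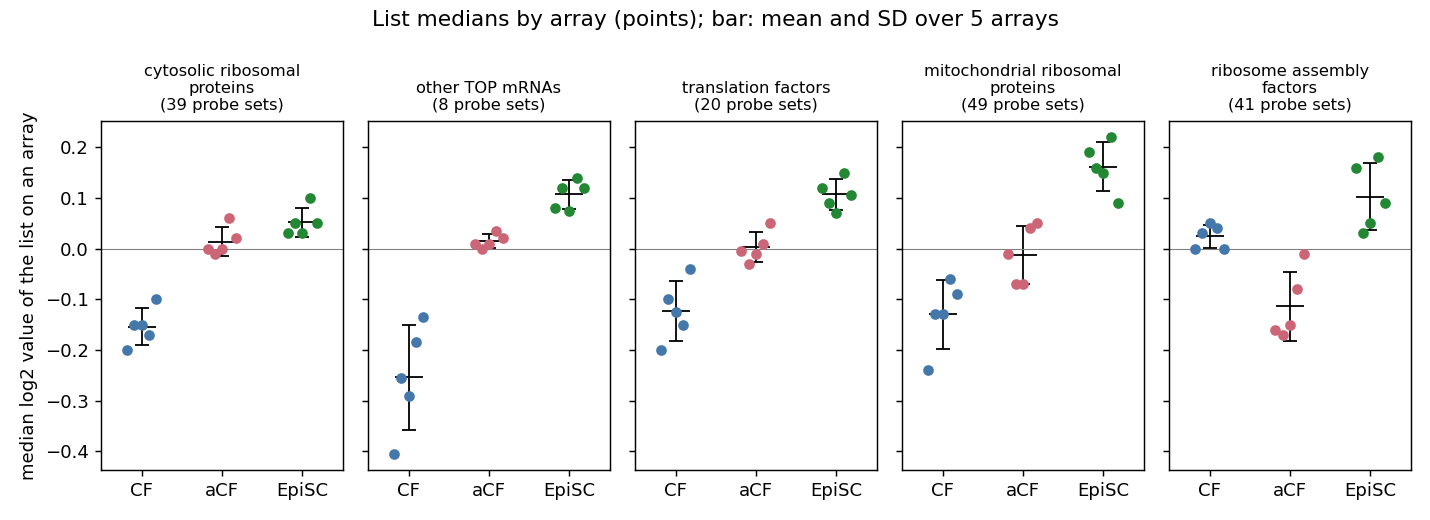
Median log2 value of 5 gene lists (y axis, relative to the median of the 15 arrays) on each array (points, 5 per group), with group mean and SD as bars. Ribosomal proteins lie between -0.2 and -0.1 in CF and between -0.01 and 0.06 in aCF, whereas assembly factors lie between 0 and 0.05 in CF and between -0.17 and -0.01 in aCF.

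The 49 measured mitochondrial ribosomal proteins, which serve the separate ribosomes of mitochondria, had medians of 0.13 between aCF and CF and 0.30 between EpiSC and CF. Between EpiSC and CF 3 of 49 rose in limma (1.97% of all rows). Mrpl17 differed by 0.72 ± 0.07 (adjusted p = 0.0122), Mrpl34 by 0.67 ± 0.06 (0.013) and Mrpl20 by 0.57 ± 0.06 (0.0236). Omitting any single array ended the call of Mrpl20 (up to 0.159). Omission of any array but CF3, CF5 or EpiSC5 ended that of Mrpl17 (up to 0.0869), and of any but CF4 or EpiSC4 that of Mrpl34 (up to 0.0919). The trended and robust fit also ended that of Mrpl34 (0.337). Between EpiSC and aCF the median was 0.14, against 0.04 for the cytosolic set. Neither list had a member past Bonferroni adjustment there (0 in limma), and 10 of 49 mitochondrial members were higher by Benjamini-Hochberg (4.61% of all rows).

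The remaining lists were small. The 6 measured genes of RNA polymerase I had medians of -0.04 between aCF and CF, 0.03 between EpiSC and CF and 0.33 between EpiSC and aCF. The 11 measured cytosolic tRNA synthetases had -0.04, 0.31 and 0.24 in the same order. The 3 measured relatives of ribosomal proteins outside the set, Rpl22l1, Rsl24d1 and Mrto4, differed by 0.08, 0.30 and -0.03 between aCF and CF. In these lists 0 passed Bonferroni adjustment in limma. By Benjamini-Hochberg 0, 2 and 0 were higher and 2, 0 and 0 lower between aCF and CF (8.74% and 9.38% of all rows). Between EpiSC and CF 2, 6 and 2 were higher and 1, 0 and 0 lower (14.5% and 17.7% of all rows). Between EpiSC and aCF 2, 2 and 1 were higher and 0 lower (4.61% and 5.01% of all rows).

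Cell cycle genes were higher than in CF in both infarct groups, as the ribosomal proteins were, while markers of other cell types took various directions. Of 43 cell cycle genes 23 were higher in aCF than in CF past the threshold (1.21% of all rows), and 31 were higher in EpiSC than in CF (1.97% of all rows). The list's array medians lay between -1.42 and -1.15 in CF, -0.01 and 0.06 in aCF, and 0.36 and 0.68 in EpiSC. Medians of 14 macrophage markers lay between -0.22 and 0.02 in CF, 0.09 and 0.32 in aCF, and -0.13 and 0 in EpiSC. Those of 11 heart muscle markers lay between 0.09 and 0.56 in CF, -0.47 and 0.29 in aCF, and -0.44 and -0.21 in EpiSC. For 11 endothelial markers they were 0.02 to 0.35, -0.24 to 0.28 and -0.68 to -0.36, and for 9 mural markers -0.68 to 0.27, 0.15 to 0.29 and -0.95 to -0.2. The 12 fibroblast markers gave 0 to 0.09, -0.02 to 0.1 and -0.26 to -0.03. These medians hide opposite changes: between aCF and CF 3 of the 12 were higher and 2 lower past the threshold (1.21% and 0.32% of all rows). Differences between aCF and CF ran both ways in the endothelial (-1.07 to 1.14) and mural (-0.62 to 2.98) lists too. For 7 lymphocyte markers the array medians were -0.11 to 0.03, -0.07 to 0.06 and -0.14 to 0.14, and for 5 neutrophil markers -0.13 to -0.02, -0.06 to 0.13 and -0.01 to 0.35. A single red cell gene was measured, from -0.75 to 0.17, from -0.94 to 0.26 and from 0.5 to 1.22. The part of these groups in the ribosomal protein differences was not tested.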

How the data were processed

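RNA of 15 samples was hybridised to Affymetrix arrays. The authors processed them in GeneSpring GX 12.5 by quantile normalization, an exon-level RMA summary and centring on the median over samples, per the labels and design text. The deposited values are taken as log2, which the RMA method implies and no header states. The design text's filter on raw signal could not be applied to centred values, so all 22206 rows were tested. The aligner, build and annotation version are not given in the sources used here.

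Values of identifier row i were read from row i + 6900, or i + 6903 for chromosomes 10 and 11, which paired 15303 rows. For the 6 members on those chromosomes, the mean correlation with the other members' deviations was 0.404 with the 3 extra rows and -0.019 without. The 0.404 was the highest among extra offsets of -10 to 10 tried on these same members, so it is no independent check. The displacement was found from values in earlier work. The members, lists and rule for named genes were chosen with earlier results of these data known. Named were members past the threshold, the 5 largest differences each way, the copies and stalk proteins, and list genes past the threshold. Rps15a, Rps6, Rpl41, Rpl32, Rpl32l, Rptor and Tsc1 were chosen after their values were seen.

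limma 3.58.1 in R 4.3.3 (lmFit, eBayes; 2-sided) was fitted per pair of groups, with Bonferroni adjustment over all rows at 0.05, after tests on simulated data. Intervals are 95%. Alternatives changed the adjustment, the variance model, the normalization, the pairing, the members and the arrays used. The number of arrays limits the precision.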

Additional observations from a re-analysis of the deposited data

Results flagged for a closer look

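Of 120 sets of 5 arrays examined (39 probe sets and their median in 3 groups), 7 had an array far from the other 4, with a gap above 0.71 of the group's range. Chance alone flags about 1 in 20 groups. Of these, 4 concern EpiSC4: the member median (0.1), Rpl5 (0.15), Rps19 (0.31) and Rps15 (0.07) were highest there. CF4 was lowest for Rpl7 (-0.12) and Rpl41 (-0.3). Rpl28 was highest on aCF2 (0.06) within its group.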

How the results depend on the processing

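The sign of the member median was kept under every alternative run. By the inference on row positions, names as deposited point at other rows, so their sign is no check on these genes. Between aCF and CF the median was 0.16. It became 0.21 after quantile normalization and 0.004 with the names as deposited. Between EpiSC and CF it became 0.023 with the names as deposited. Between EpiSC and aCF, 0.04 became 0.02 after quantile normalization and 0.06 without aCF4 and aCF5. With the names as deposited it was 0.039, with 36 of 60 probe sets higher in EpiSC. Leaving out 1 array gave medians of 0.15 to 0.18 for aCF against CF, 0.21 to 0.23 for EpiSC against CF and 0.02 to 0.05 for EpiSC against aCF. The count of members past the threshold for aCF against CF, 1, became 2 in a fit of all 3 groups, 2 without the extra offset of 3 rows, 20 by Benjamini-Hochberg, 0 without both aCF4 and aCF5 (chosen after seeing the data), and 0 to 1 without a single array. The count for EpiSC against CF, 3, became 26 by Benjamini-Hochberg, 0 with a trended and robust fit, 1 with the names as deposited, and 0 to 1 without a single array. The count of 0 for EpiSC against aCF became 1 with the names as deposited and stayed 0 in the omissions. With the replicate number as a block, the counts against CF fell to 0 and 0. Deviations of same-numbered arrays correlated between -0.022 and 0.156. Between EpiSC and aCF all of these values were positive, from 0.019 to 0.154 (mean 0.064). Differently numbered EpiSC and aCF arrays ran from -0.113 to 0.081, and aCF5 with CF4 reached 0.138. The 0.156 was that of aCF1 with CF1, which come from infarcted and unstressed hearts. The labels do not say that the numbers pair the samples, so the main fits left them unpaired. Whether same-numbered arrays share a heart or a batch was not tested. Of values that were not past the threshold, Rplp1 turned to -0.004 between EpiSC and aCF after quantile normalization, and without aCF4 and aCF5 Rplp0 became 0.001 there and Rpl21 -0.014 between aCF and CF. The causes were not tested. Signal over background is lost in centred values.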
